A study of Mus musculus with 4 samples.

Results

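Heat shock proteins are molecular chaperones that bind unfolded or nascent proteins and help them reach or regain their fold. Proteins of the HSP70 family hold and release their clients through cycles of ATP hydrolysis, J-domain proteins such as DNAJB1 and DNAJA1 bring clients to them and stimulate that hydrolysis, HSP110 proteins such as HSPH1 act as their nucleotide exchange factors, HSP90 matures kinases and receptors, small heat shock proteins such as HSPB1 bind unfolding proteins without ATP, and the mitochondrial chaperonin HSPD1 (HSP60) folds imported proteins together with its lid HSPE1 (HSP10). Several of these genes are induced by heat and by other stress through heat shock factor HSF1, and they are also known to rise during enzymatic dissociation of tissue at body temperature.

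A list of 10 such genes was described, out of 46517 gene rows, in mouse ear dermis blood vascular endothelial cells (BECs). The members are the HSP70 genes *Hspa1a*, *Hspa1b* and *Hspa8*, the HSP110 gene *Hsph1*, the HSP90 gene *Hsp90aa1*, the small heat shock protein gene *Hspb1*, the J-domain protein genes *Dnajb1* and *Dnaja1*, and the chaperonin genes *Hspd1* and *Hspe1*. Each symbol matched 1 Ensembl gene identifier of the count tables.

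All samples were of 1 group. Ears of wild-type adult female C57Bl/6 mice of 12 to 26 weeks were digested with collagenase IV at 37 °C for 20 minutes, and CD31+/CD45-/Lyve1- cells were sorted singly into 4 plates of 384 wells and their transcripts were read by Smart-seq2, in which each well is 1 library and reads carry no molecular identifiers. The plates form 2 replicates of 2 plates each (A and B), and the series' design text gives a pool of 6 mice without saying whether each replicate came from mice of its own, so the values below measure the spread between these plates and replicates, which may be technical. The labels' strain and age range are given here. The study's methods name the substrain C57BL/6 J and an age range that starts and ends earlier. No undigested, unheated or otherwise treated sample was analysed here, and levels are therefore those of digested and sorted cells.

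Of 1536 wells, 701 were kept as BECs, with 156 (plate A) and 182 (plate B) in replicate 1 and 176 and 187 in replicate 2. Kept wells held a median of 142614 reads in replicate 1 and 92974 in replicate 2, and a median of 4540 and 2576 genes with a read. Mitochondrial reads made up a median of 1.68% in replicate 1 and 3.70% in replicate 2, where 99 of 363 wells had over 10%. Markers of other cell types had reads in many kept wells of both replicates. *Rgs5*, a pericyte gene, had a read in 100% of those of replicate 1, at a median level of 148 CPM (reads of the gene scaled to a fixed total per well), and *Acta2* of smooth muscle had one in 95.9%, at a median of 29.4 CPM. In replicate 2 the same genes had reads in 63.9% and 43.5% of wells, at medians of 9.53 and 0 CPM. Of 6 lymphatic genes 5 were read more often in replicate 2, with a read of *Ccl21a* in 14.5% of wells of replicate 1 and 74.1% of replicate 2, and of *Mmrn1* in 11.8% and 52.6%, while *Flt4* was read in 34.9% and 31.4%. The fibroblast gene *Dcn* was read in 70.4% and 47.9% of wells, at means of 34.6 and 431 CPM, and *Col1a1* in 92.9% and 25.1%, at means of 135 and 56.9 CPM. A single read of a gene in a well is therefore not read as expression in either replicate, and shares of wells with 100 CPM or more are given beside shares of wells with a read.

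The genes and their upstream sequences are given first, because the counts of several members rest on sequence that other genes share. *Hspa1b* (ENSMUSG00000090877) and *Hspa1a* (ENSMUSG00000091971) are single-exon neighbours on the minus strand of chromosome 17 (GRCm38), at 34956436 to 34959238 and 34969190 to 34972156, with 9951 bases between them. *Hspd1* (chromosome 1, 55077835 to 55088243, minus strand) and *Hspe1* (chromosome 1, 55088132 to 55091307, plus strand) lie head to head and overlap by 112 bases. *Dnajb1* is on chromosome 8 (83608193 to 83612653), *Hspb1* on chromosome 5 (135887919 to 135889563), *Hsph1* on chromosome 5 (149614287 to 149636376), *Dnaja1* on chromosome 4 (40722150 to 40737149), *Hspa8* on chromosome 9 (40800984 to 40810087) and *Hsp90aa1* on chromosome 12 (110690605 to 110702728).

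RefSeq promoter sequences (GRCm38.p6) were found for 8 members. The 250 bases before the first start site are shown for the paralogs *Hspa1a* and *Hspa1b*, whose wells varied together, for *Hspb1*, the member with the highest level per kilobase, and for *Dnajb1*, the member with the lowest unadjusted p between vein-like and artery-like wells. Capitals mark each pair of inverted GAA units spaced by 2 bases (GAANNTTC or TTCNNGAA, each its own reverse complement), the letters of a heat shock element to which HSF1 is known to bind.
Hspa1a, chr17:34972157-34972406, minus strand: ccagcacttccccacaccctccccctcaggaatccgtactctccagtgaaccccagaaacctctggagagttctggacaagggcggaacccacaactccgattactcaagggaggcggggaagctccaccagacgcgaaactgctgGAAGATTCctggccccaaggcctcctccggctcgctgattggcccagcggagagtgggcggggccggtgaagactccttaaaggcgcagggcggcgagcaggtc
Hspa1b, chr17:34959239-34959488, minus strand: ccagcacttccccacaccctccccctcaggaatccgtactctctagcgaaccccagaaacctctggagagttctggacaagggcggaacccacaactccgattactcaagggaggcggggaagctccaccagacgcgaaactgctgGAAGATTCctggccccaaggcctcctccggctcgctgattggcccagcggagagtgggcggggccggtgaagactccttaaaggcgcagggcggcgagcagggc
Hspb1, chr5:135887669-135887918, plus strand: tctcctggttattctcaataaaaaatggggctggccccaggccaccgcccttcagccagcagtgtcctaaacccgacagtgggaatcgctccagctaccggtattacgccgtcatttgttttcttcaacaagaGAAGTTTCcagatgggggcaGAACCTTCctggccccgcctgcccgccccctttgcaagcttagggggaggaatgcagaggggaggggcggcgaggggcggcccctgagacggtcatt
Dnajb1, chr8:83607925-83608174, plus strand: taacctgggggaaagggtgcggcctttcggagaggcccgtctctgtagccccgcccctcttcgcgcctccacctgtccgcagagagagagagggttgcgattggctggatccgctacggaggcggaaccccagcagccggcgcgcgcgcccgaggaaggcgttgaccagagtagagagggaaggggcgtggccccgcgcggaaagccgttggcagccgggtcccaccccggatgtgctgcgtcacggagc

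The upstream sequences of *Hspa1a* and *Hspa1b* differed at 3 of 250 positions, C44T, T47C and T249G (the base of *Hspa1a*, the position from 1 at the 5′ end of the printed sequence, then the base of *Hspa1b*), and the pair of units stood 104 bases before the start in both. *Hspb1* had 2 pairs, and *Dnajb1* had none in this window. For *Hspe1*, *Hsph1* and *Dnaja1* the 30 bases around the motif are enough to compare the units.
Hspe1, chr1:55088053-55088082, plus strand: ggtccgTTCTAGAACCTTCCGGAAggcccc
Hsph1, chr5:149636351-149636380, minus strand: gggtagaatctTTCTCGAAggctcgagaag
Dnaja1, chr4:40722333-40722362, plus strand: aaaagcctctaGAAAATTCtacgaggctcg

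At *Hspe1* the units run on as 3 overlapping pairs, and the same bases lie upstream of the second start site of the divergent gene *Hspd1*. In all, 7 of the 8 members had a pair upstream of some start site, against 14.5% of the 27025 genes of the table (12.8% of its 32851 promoters), and 2 had at least 3 alternating units in a row at the same spacing (a run that contains the pair), against 0.514% of genes. The 2 are *Hspe1* and *Hspd1*, which share that DNA. A match is a match of letters and no evidence of binding in these cells.

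The principal transcripts were cut into all 50-base windows, the read length of the libraries, and searched in the transcripts of all other genes of GENCODE vM21. Windows shared exactly with another gene made up 66.3% for *Hspa1a* and 62.3% for *Hspa1b*, mainly with each other. They made up 74.8% for *Hspa8*, 65.6% for *Hsp90aa1* and 60.4% for *Hspb1*, whose main partners were *Gm15459*, *Gm12346* and *Hsp25-ps1*. For *Hspe1*, *Hspd1* and *Dnaja1* the shares were 44.8%, 44.8% and 30.6%. *Dnajb1* shared 0.441% of its windows and *Hsph1* none of 3191. How reads that match several places were counted is not given in the sources used here, so the levels of the 9 members with shared windows are uncertain in size, *Dnajb1* least of them, and *Hspa1a* and *Hspa1b* cannot be fully told apart. The main partners of *Hspa8*, *Hspb1* and *Hsp90aa1* had mean levels of 0.696, 3.98 and 0.975 CPM in replicate 1 and of 0.413, 4.87 and 2.59 CPM in replicate 2.

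*Hspa8*, the constitutive cytosolic HSP70, and *Hspb1* had the highest medians among the members and were the only ones with 100 CPM or more in over 50% of wells of both replicates. Mean *Hspa8* levels on plates 1A, 1B, 2A and 2B were 741, 731, 535 and 394 CPM, and those of *Hspb1* were 694, 829, 392 and 443 CPM. Both genes were higher on each plate of replicate 1 than on each plate of replicate 2. Among the 9773 genes with a mean of at least 10 CPM, *Hspa8* ranked 152nd and 180th in replicates 1 and 2 by CPM, and *Hspb1* ranked 146th and 215th. *Hspa8* was at 100 CPM or more in 93.8% (replicate 1) and 58.1% (replicate 2) of wells, and *Hspb1* in 95.9% and 56.2%. With wells thinned to 20000 reads, a read of *Hspa8* was found in 97.9% and 77.6% of wells, and a read of *Hspb1* in 98.5% and 76.5%.

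*Hspa1a*, the stress-inducible HSP70, was unevenly spread. Its mean level on plates 1A, 1B, 2A and 2B was 234, 374, 95.9 and 92.1 CPM. In replicate 1 the wells fell into a low and a high band, with 190 wells above 0 and under 50 CPM, 29 wells from 50 to under 200 CPM and 92 wells at 200 CPM or more, whose median was 737 CPM. The remaining 27 wells had no read. In replicate 2, 260 of 363 wells had no read and 28 wells had 200 CPM or more, with a median of 582 CPM. The 17 highest of 338 wells of replicate 1 held 44.2% of all *Hspa1a* CPM, and the 19 highest of 363 wells of replicate 2 held 79.4%. Replicate 1 had a read in 92.0% of its wells (exact binomial 95% interval 88.6 to 94.7, which covers counting error only) and replicate 2 in 28.4% (23.8 to 33.3), but the first share is below that of the pericyte and smooth muscle genes given above. At 100 CPM or more the shares were 30.8% and 11.6%.

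*Hspa1b*, the second inducible HSP70 gene, was counted at far lower levels, with means of 17.0, 11.7, 20.1 and 12.1 CPM on plates 1A, 1B, 2A and 2B. Only 10 wells of replicate 1 and 12 wells of replicate 2 had 100 CPM or more. The windows it shares with *Hspa1a* bear on how reads were divided between them, and that part was not tested.

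*Dnajb1*, the HSP40 partner of the inducible HSP70, showed the same kind of bands as *Hspa1a*. Its means on plates 1A, 1B, 2A and 2B were 215, 260, 393 and 501 CPM. In replicate 1, 171 wells were above 0 and under 50 CPM, 20 lay from 50 to under 200 CPM and 104 were at 200 CPM or more, with a median of 625 CPM. In replicate 2, 239 wells had no read and 57 were at 200 CPM or more, with a median of 711 CPM. The higher mean of replicate 2 rested on few wells. A vein-like well of plate B with 6269 reads in all had 449 *Dnajb1* reads, or 71622 CPM, and an unnamed well of plate A with 11440 reads had 24563 CPM. Its mean in replicate 2, 449 CPM, was above that of *Hspb1*, 418 CPM, but without the highest well of each replicate the *Dnajb1* means were 233 and 252 CPM.

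*Dnaja1*, a constitutive J-domain protein gene, had nearly equal means in both replicates, at 166 and 195 CPM on the plates of replicate 1 and 181 and 193 CPM on those of replicate 2. Its shares of wells at 100 CPM or more were 53.8% and 33.1%. *Hsp90aa1*, the stress-responsive cytosolic HSP90, had means of 180, 220, 190 and 153 CPM on plates 1A, 1B, 2A and 2B, and reached 100 CPM in 55.6% and 36.1% of wells. The plates of the replicates overlapped for both genes.

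The remaining members were low. *Hspd1* had means of 40.7 to 61.6 CPM over the 4 plates, *Hspe1* of 31.1 to 38.9 CPM and *Hsph1* of 12.1 to 25.9 CPM. *Hspd1* reached 100 CPM in 51 of 338 wells of replicate 1 and 40 of 363 of replicate 2, *Hspe1* in 38 and 37 wells, and *Hsph1* in 20 and 13 wells. Most wells had no read of these 3 genes in either replicate, which at this depth does not show that they lack the transcript.

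Between genes, levels were compared per kilobase of the principal transcript. In replicate 1 *Hspb1* stood at 849 CPM per kilobase, followed by *Hspa8* at 307, *Hspa1a* at 104, *Dnajb1* at 79.9, *Hsp90aa1* at 70.7, *Dnaja1* at 53.7, *Hspe1* at 45.6, *Hspd1* at 21.4, *Hsph1* at 6.03 and *Hspa1b* at 5.04. In replicate 2 *Hspb1* at 463 and *Hspa8* at 193 CPM per kilobase again led, and *Hspa1b* at 5.71 was again last, whereas *Hspa1a* at 31.7 stood below *Dnajb1* (150), *Hsp90aa1* (59.8), *Dnaja1* (55.4) and *Hspe1* (46.4). The spread between wells was wide, with an SD over wells of 453 CPM around the mean of 767 CPM for *Hspb1* and of 673 CPM around 309 CPM for *Hspa1a* in replicate 1.

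**Figure D1:**
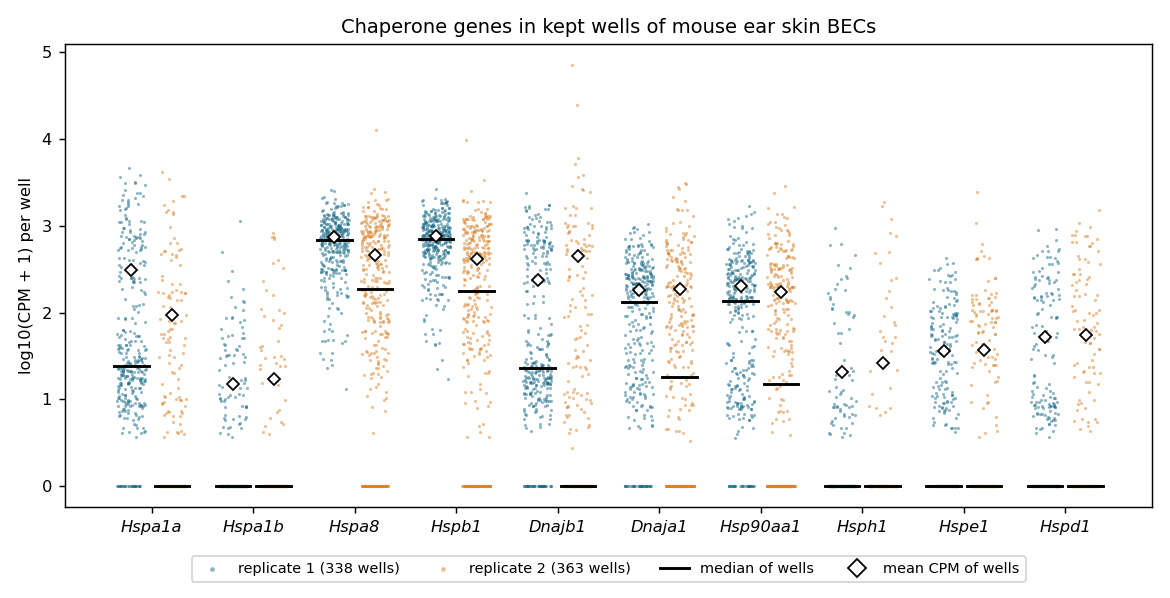
Level of each of the 10 genes in each kept well, as log10(CPM + 1) on the vertical axis, with replicate 1 (338 wells) in blue and replicate 2 (363 wells) in orange. Black lines are medians and open diamonds are mean CPM of the wells on the same scale. *Hspa1a* and *Dnajb1* of replicate 1 fall into a low band and a high band, while *Hspa8* and *Hspb1* of replicate 1 form a single band around medians of 694 and 706 CPM.

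Variation between wells was set against that of other genes of like mean with scran, as the variance of log expression above the fitted trend, ranked over 13128 genes. *Dnajb1* ranked 4137th in replicate 1 and 51st in replicate 2, and *Hspa1a* ranked 1459th and 595th. *Hspa8* (12811th and 12384th), *Hspb1* (12828th and 12303rd), *Dnaja1* (12802nd and 12806th) and *Hsp90aa1* (12641st and 12771st) varied less than the trend in both replicates. A kept well had reads of a median of 7 members in replicate 1 and 4 in replicate 2, and of 5 and 3 members after thinning to 20000 reads.

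**Figure D2:**
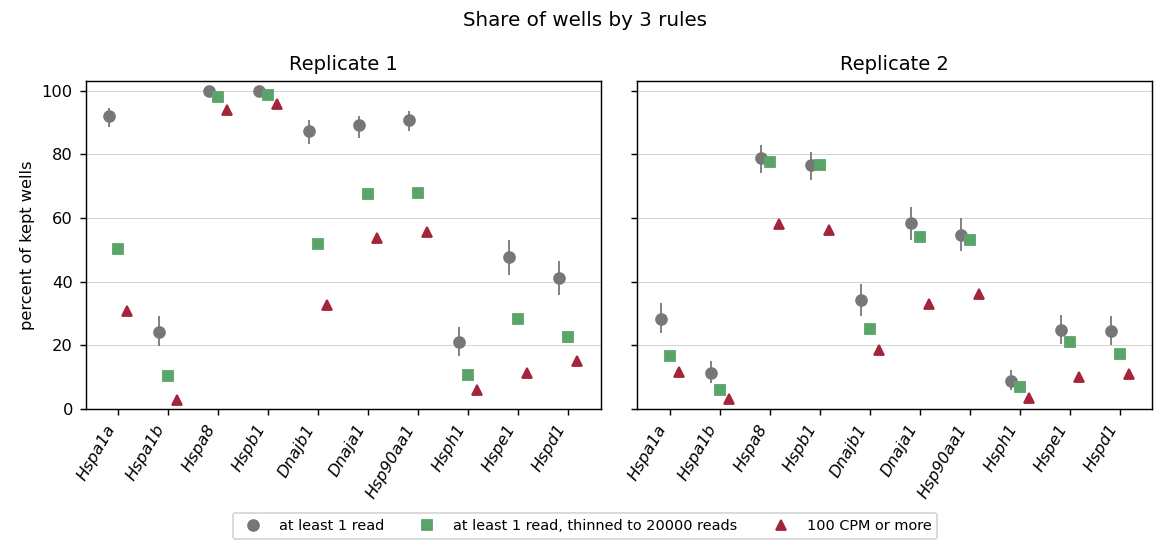
Percent of kept wells of replicate 1 (left) and replicate 2 (right) with at least 1 read of each gene (grey circles, with exact binomial 95% intervals), with at least 1 read after thinning to 20000 reads (green squares) and with 100 CPM or more (red triangles). For *Hspa1a* in replicate 1 the share falls from 92.0% to 30.8% between the first and the last rule, and for *Hspb1* from 100% to 95.9%.

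With 1 pool per replicate at most, there is no test between replicates, and a gene was counted as apart when its mean CPM differed at least 2-fold and both plates of a replicate lay beyond both plates of the other. *Hspa1a* alone among the members met this rule, at 309 CPM in replicate 1 and 93.9 CPM in replicate 2, a 3.29-fold difference. Of all 9773 genes compared, 14.0% were higher in replicate 1 and 8.61% higher in replicate 2 by the rule, so 1 of 10 members is near the background. *Hspb1* and *Hspa8* were 1.83-fold and 1.59-fold higher in replicate 1 with no overlap of plates, directions that turned with scran size factors. With the limit of 10 CPM on genes of other cell types, *Hspb1* was 2.31-fold higher in replicate 1 and apart by the rule. *Dnajb1* was 1.88-fold higher in replicate 2 with no overlap of plates. That difference of *Dnajb1* shrank to 1.03-fold in wells with at most 10% mitochondrial reads, and turned to 1.11-fold higher in replicate 1 with wells thinned to 20000 reads. It grew to 2.76-fold with the limit of 10 CPM, which left only 18 wells of replicate 1 beside 229 of replicate 2. It also grew to 2.08-fold without plate 1B, to 2.095-fold without plate 2A and to 17.3-fold with scran size factors. In these 4 settings *Dnajb1* was apart by the rule. With scran size factors its scaled means on plates 2A and 2B were 2768 and 5624, beside 393 and 501 CPM. The part of single wells in these means was not tested. The median gene differed by -0.25 on the log2 scale (replicate 2 minus replicate 1), and -1.72 was the value for *Hspa1a*. Scran size factors moved the median to 0.64 and turned the background to 496 of 10784 genes higher in replicate 1 and 3008 higher in replicate 2, with *Hspa1a* at -0.70 and no longer apart. With them 5 members (*Hspa1b*, *Dnajb1*, *Dnaja1*, *Hsph1* and *Hspe1*) were higher in replicate 2 by the rule, and *Hspa8* and *Hspb1* were 2.31-fold and 1.19-fold higher there with plates that overlapped. Depth, mitochondrial share and the share of wells with reads of other cell types differ between the replicates too, and their part in these differences was not tested.

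To ask whether the chaperones differ along the vascular tree, kept wells were clustered without any chaperone gene and without dissociation-induced genes, and clusters were named by their markers. The artery-like class had 63 and 130 wells in replicates 1 and 2, with 12 of 12 artery markers higher. The capillary-like class had 134 and 27 wells, with 10 of 11 capillary markers higher. The vein-like class had 119 and 125 wells, with 7 of 10 vein markers higher (*Selp*, *Sele*, *Lrg1*, *Vwf*, *Ackr1*, *Vcam1* and *Icam1*). The vein markers *Nr2f2*, *Ephb4* and *Aplnr* were not among them, and 4 leukocyte markers were also higher in this class. A further 22 and 81 wells stayed without a name. They had 8 mural, 6 lymphatic, 6 fibroblast and 5 keratinocyte markers higher, and *Mmrn1*, a lymphatic gene, and *Col6a3* were among their leading genes. *Sele*, *Ackr1* and *Selp* led the vein-like cluster, and the non-markers *Rgs16*, *Rcan1* and *Myc* were among its 10 leading genes. *Fbln5*, *Bmx* and *Jag1* were among the 10 leading genes of the artery-like cluster. *Cd36* and *Timp4* were among those of the capillary-like cluster, whose other leading genes were no markers. With clustering at the next higher resolution only 33 and 38 wells were artery-like, and 77 and 250 wells had no name. In artery-like wells of replicates 1 and 2 the 12 artery markers summed to means of 2813 and 2159 CPM. The 10 vein markers summed to 1110 and 2102 CPM there. The 6 fibroblast markers summed to means of 871, 247 and 90.0 CPM in artery-like, capillary-like and vein-like wells of replicate 1 and, in the opposite order, of 182, 282 and 837 CPM in replicate 2, and their part in the class differences was not tested.

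No member passed edgeR's quasi-likelihood test on counts summed per replicate and class, in any of 3 comparisons, and no other gene did (0% of 15818 genes tested at an adjusted p under 0.05). At an unadjusted p under 0.05, edgeR called 3.44% of genes for any difference between classes, 3.18% for vein-like against artery-like wells and 4.16% for capillary-like wells against the mean of the others, and none of the 10 members was among them. DESeq2 called 0.885%, 1.18% and 2.16% of genes at an adjusted p under 0.05, and again none of the members. With 2 residual degrees of freedom the fit recovered none of 190 genes changed in simulated sums of the same spread, so these results do not show that levels were alike. The smallest adjusted p of any member over all alternative fits was 0.583.

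*Dnajb1* came closest. TMM-normalized CPM of the summed counts in artery-like, capillary-like and vein-like wells were 72.9, 255 and 394 in replicate 1 and 196, 132 and 345 in replicate 2. Vein-like wells were highest and above artery-like wells in both replicates, by 1.48 ± 0.63 on the log2 scale (edgeR estimate ± SE), with an unadjusted p of 0.0504 and an adjusted p of 0.999985. By plate, artery-like, capillary-like and vein-like sums stood at 72.0, 262 and 372 CPM on plate 1A, at 74.7, 257 and 421 on 1B, at 215, 212 and 508 on 2A and at 183, 88.5 and 188 on 2B. The plates of replicate 1 gave the same order, and on plate 2B artery-like and vein-like sums were nearly level. *Dnajb1* reached 100 CPM in 57.1% of vein-like wells of replicate 1, against 15.9% of artery-like and 23.1% of capillary-like wells, and in 27.2% of vein-like wells of replicate 2, against 13.1% and 14.8%. On plate 2B alone those shares were 13.6%, 12.2% and 10.5%. The well of 71622 CPM was vein-like and moved the mean CPM of that class in replicate 2 from 287 to 858 CPM, whereas it gave the summed counts only 449 reads.

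*Hspa8* had TMM-normalized CPM of 678, 605 and 937 in artery-like, capillary-like and vein-like wells of replicate 1 and of 503, 546 and 671 in replicate 2. *Hspb1* stood at 602, 713 and 821 in replicate 1 and at 431, 563 and 536 in replicate 2. Vein-like sums exceeded artery-like sums in both replicates, by 0.44 ± 0.29 for *Hspa8* and 0.38 ± 0.30 for *Hspb1* on the log2 scale, and neither passed the test (adjusted p = 0.999985 in edgeR). With wells classed by their highest marker score the differences were 0.0033 and 0.030. *Dnaja1* differed by less, at 188, 180 and 207 CPM in replicate 1 and 207, 217 and 241 CPM in replicate 2, or 0.18 ± 0.41 on the log2 scale. *Hsp90aa1* showed no common order, with 187, 163 and 214 CPM in replicate 1 and 221, 296 and 178 CPM in replicate 2.

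The inducible HSP70 genes had the opposite sign. *Hspa1a* stood at 302, 358 and 233 CPM in artery-like, capillary-like and vein-like wells of replicate 1 and at 246, 33.6 and 72.1 CPM in replicate 2. Vein-like sums thus lay below artery-like sums in both replicates, by a log2 difference of -1.25 ± 0.73 (adjusted p = 0.999985 in edgeR). That sign turned with the limits of 10 and 300 CPM on genes of other cell types. The limit of 10 CPM left only 2 artery-like and 6 vein-like wells of replicate 1. *Hspa1b* stood at 8.68, 11.1 and 6.17 CPM in replicate 1 and 30.7, 0.480 and 2.19 CPM in replicate 2 (log2 difference -2.84 ± 2.00). In replicate 1 the share of wells with 100 CPM or more of *Hspa1a* hardly moved between classes, at 30.2%, 32.8% and 28.6%, and in replicate 2 it was 16.9%, 14.8% and 8.80%.

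*Hspd1* stood at 41.3, 59.0 and 53.8 CPM in artery-like, capillary-like and vein-like wells of replicate 1 and 45.6, 71.5 and 89.9 CPM in replicate 2, and *Hspe1* at 26.8, 24.5 and 40.0 CPM and 24.5, 46.5 and 26.5 CPM. *Hsph1* went in opposite directions, from 13.6 in artery-like to 32.9 CPM in vein-like wells of replicate 1 and from 60.1 to 7.18 CPM in replicate 2. Each of these sums rests on a small number of wells with many reads.

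**Figure D3:**
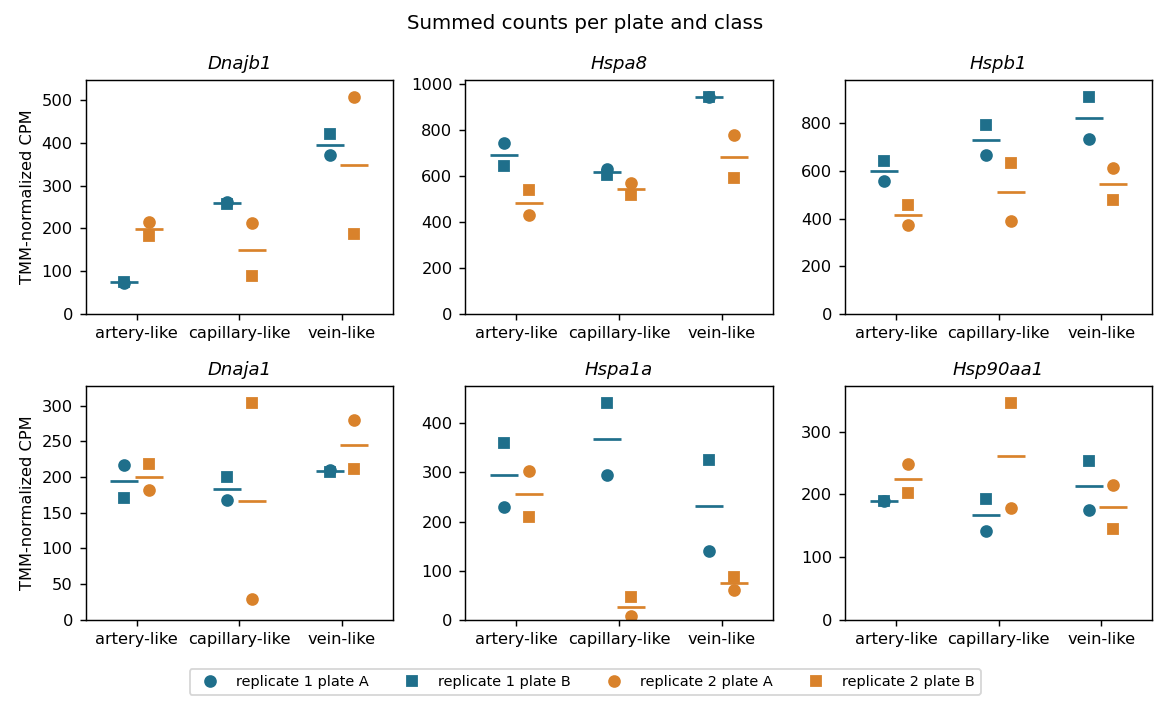
TMM-normalized CPM of counts summed over the artery-like, capillary-like and vein-like wells of each plate for 6 of the genes, with replicate 1 in blue, replicate 2 in orange, plate A as circles, plate B as squares and short lines at the mean of both plates of a replicate. *Dnajb1* rises from 72.0 and 74.7 in artery-like to 372 and 421 in vein-like sums on the plates of replicate 1, and is at 183 and 188 on plate B of replicate 2.

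Counted over the list, 6 of 10 members (*Hspa8*, *Hspb1*, *Dnajb1*, *Dnaja1*, *Hspe1* and *Hspd1*) had higher vein-like than artery-like sums in both replicates, against 28.6% of all genes tested, and 2 of 10 (*Hspa1b*, and *Hspa1a*, whose sign turned with the limits named above) had lower ones in both, against 25.8%. The median log2 difference was 0.28 over the members and 0.02 over all genes. By mean CPM per well, 5 members were highest in vein-like wells of both replicates, against 18.2% of 9773 genes. By the share of wells with 100 CPM or more, 6 members were highest there, but so were 43.3% of all genes. Vein-like wells were also the deepest, with medians of 185687 and 170443 reads against 120398 and 84017.5 in artery-like and 137518 and 49592 in capillary-like wells. The median mitochondrial share was 1.77% in vein-like, 1.79% in artery-like and 1.49% in capillary-like wells of replicate 1 and 2.18%, 4.29% and 3.70% in those of replicate 2. In wells with at most 10% mitochondrial reads, 6 members and 37.7% of genes were highest in vein-like wells by the share of wells with 100 CPM or more. By mean CPM, 4 members and 16.5% of genes were. The counts of the highest class were chosen after the data were seen. The 26 dissociation-induced genes, such as *Fos* and *Jun*, also had their highest summed level in vein-like wells, with means of 33350 and 21469 CPM against 16611 and 15170 CPM in artery-like and 15374 and 6203 CPM in capillary-like wells of replicates 1 and 2. With wells thinned to 20000 reads, 7 members and 40.1% of genes had their highest share at 100 CPM or more in vein-like wells, and 3 members and 16.5% of genes their highest mean. The part of the dissociation-induced genes in the values of the chaperones was not tested.

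Wider lists of chaperones and cochaperones gave no call in edgeR either. Among 15 genes of the HSP90 machine, *Hsp90ab1*, the constitutive cytosolic HSP90, was the highest at 1455 and 1053 CPM in replicates 1 and 2, above every member, and *Stub1*, a ubiquitin ligase of chaperone clients, stood at 224 and 154 CPM. Among 14 chaperones of the endoplasmic reticulum, *Hspa5* (BiP) had 440.5 and 339 CPM and the disulfide isomerase gene *Pdia3* 418 and 292 CPM, and vein-like sums were above artery-like sums in both replicates for 6 genes and below in both for 0 (28.6% and 25.8% of all genes). Among 8 subunits of the cytosolic chaperonin CCT, *Cct7* had 312 and 207 CPM and *Cct5* 270.1 and 195 CPM, and vein-like sums were higher in both replicates for 4 and lower in both for none. Of the 8 nucleotide exchange factors, *Bag3* had 230.4 and 203 CPM and *Bag5* 180 and 76.0 CPM.

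Of the other HSP70 and HSP110 genes, the mitochondrial *Hspa9* had 153 and 159 CPM and *Hspa12b* 147 and 73.4 CPM. *Hspa12b* was at 150, 209 and 67.8 CPM in artery-like, capillary-like and vein-like sums of replicate 1 and at 104, 164 and 53.8 CPM in replicate 2, the same order in both. The J-domain genes *Dnaja2* and *Dnajc8* had 199 and 166 CPM in replicate 1 and 133 and 99.0 CPM in replicate 2. The small heat shock protein genes *Hspb6* and *Hspb8* stayed at 17.1 and 19.0 CPM in replicate 1 and 25.7 and 10.9 CPM in replicate 2. The regulators *Hsbp1* and *Hsf1* had 138 and 43.0 CPM in replicate 1 and 85.3 and 49.6 CPM in replicate 2, and *Sqstm1*, an autophagy receptor gene of the list of other stress proteins, stood at 516 and 354 CPM in the replicates. Median log2 differences of vein-like minus artery-like sums ran from -0.55 for the 4 regulators tested to 0.32 for the CCT genes. Vein-like sums were above and below artery-like sums in both replicates for 3 and 4 of 13 other J-domain genes, 3 and 3 of 8 nucleotide exchange factors, 4 and 2 of 15 genes of the HSP90 machine, 2 and 2 of 7 other HSP70 and HSP110 genes, 2 and 0 of 5 other stress-protein genes, and 1 and 1 each of 5 other small heat shock protein genes and of 4 regulators. At most 1 gene per list passed an unadjusted p under 0.05 in any comparison. Of the 26 dissociation-induced genes, 15 passed it for any difference (3.44% of all genes), 6 for vein-like against artery-like wells (3.18%), all higher in vein-like wells, and 16 for capillary-like wells against the others (4.16%), all lower in capillary-like wells. None passed after adjustment in edgeR.

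Across wells the members varied together only weakly. Spearman correlations of CPM over the 45 pairs had a median of 0.10 in replicate 1 (338 wells, from -0.03 to 0.41) and of 0.10 in replicate 2 (363 wells, from -0.06 to 0.41), beside medians of 0.02 and 0.04 over all pairs of genes with a mean of at least 10 CPM. Wells of a replicate share its plates and its pool of cells, and they differ in depth, so these values are descriptions without a test. In replicate 1 the highest pair was *Hspa1a* with *Hspa1b*, at 0.41, and both were next most correlated with *Hsp90aa1* (0.24 and 0.26) and *Hspb1* (0.23 and 0.24). In replicate 2 the highest pairs were *Hspa8* with *Hspb1* (0.41), *Dnaja1* with *Hsp90aa1* (0.35) and *Hspa8* with *Dnaja1* (0.31), while *Hspa1a* with *Hspa1b* stood at 0.19.

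Depth moved with the second pattern. In replicate 2, *Hspa8* CPM correlated at 0.57 with the reads of the well and at -0.56 with its mitochondrial share, against 0.28 and -0.04 in replicate 1. After ranks were adjusted for the number of genes detected, *Hspa8* with *Hspb1* fell to 0.29 and the median over pairs to 0.03 in replicate 2 (0.08 in replicate 1), beside 0.00132 (0.00366) over all pairs of genes, whereas *Hspa1a* with *Hspa1b* stayed at 0.41 in replicate 1 and 0.19 in replicate 2. Thinned to 20000 reads, the 2 paralogs correlated at 0.34 and 0.33. The part of their shared windows in these correlations was not tested, and neither the adjustment nor the thinning removes it. *Hspd1* and *Hspe1*, which share a promoter region and a complex, correlated at 0.18 and 0.15.

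**Figure D4:**
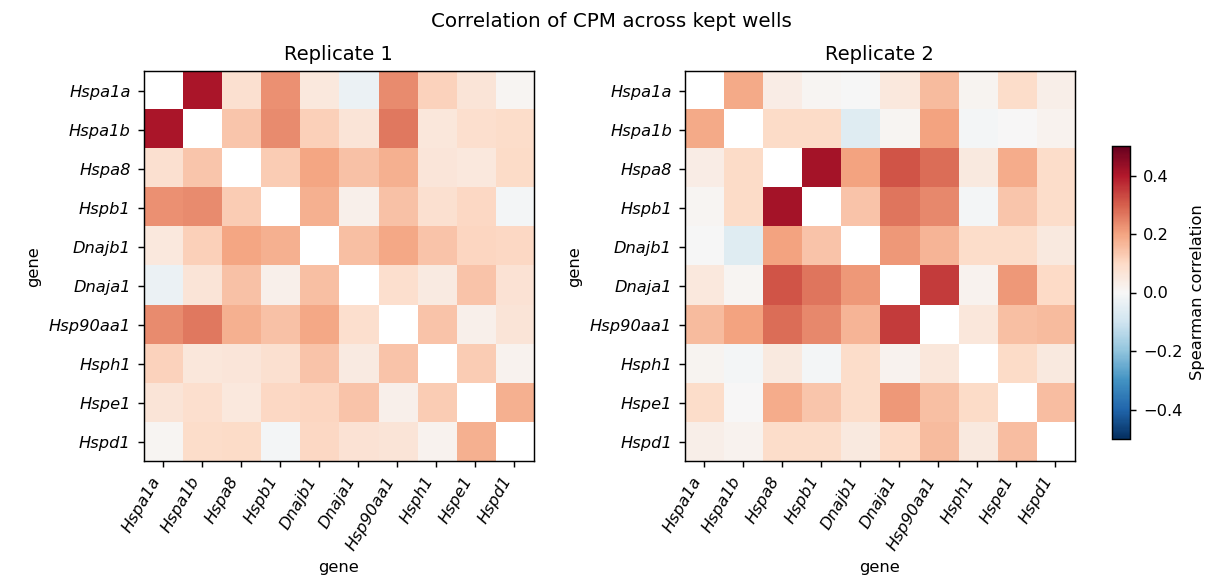
Spearman correlation of CPM across kept wells for each pair of the 10 genes, in replicate 1 (left, 338 wells) and replicate 2 (right, 363 wells), on a colour scale from blue (negative) to red (positive) with the diagonal left blank. *Hspa1a* with *Hspa1b* (0.41) is highest in replicate 1, and *Hspa8* with *Hspb1* (0.41) in replicate 2.

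Wells with high *Hspa1a* were described further. The 32 wells of replicate 1 with 1000 CPM or more of *Hspa1a* had a median of 1122 CPM of *Hspb1* against 689 CPM in the other 306 wells, a median of 366 against 113 CPM of *Hsp90aa1*, and a read of *Hspa1b* in 84.4% against 17.97% of wells. In the 10 such wells of replicate 2 the medians were 828 against 166 CPM for *Hspb1* and 738 against 12.1 CPM for *Hsp90aa1*, and *Hspa1b* was read in 70.0% against 9.63% of wells. Since *Hspa1b* shares 62.3% of its windows with *Hspa1a*, these shares may hold *Hspa1a* reads counted as *Hspa1b*, and that part was not tested. *Dnajb1* did not share this order in both replicates, with medians of 64.4 against 20.4 CPM in replicate 1 and 0 against 0 CPM in replicate 2. Of the 22 wells of replicate 1 with 1000 CPM or more of *Dnajb1*, 4 also had 1000 CPM or more of *Hspa1a*, against 28 of the other 316 wells. In replicate 2 the counts were 1 of 21 wells against 9 of the other 342. All 3 wells of replicate 2 with the most *Hspa1a* were artery-like, and the 3 of replicate 1 were capillary-like.

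The genes whose CPM followed the mean rank of the 10 members most closely in both replicates were, in order, *Junb*, *Jun*, *Ier2*, *Nfkbia*, *Ier3*, *Atf4*, *Dusp1*, *Socs3*, *Zfp36* and *Gadd45g*, out of 723 genes with a read in at least 50% of the wells of each replicate. *Junb*, a subunit of the AP-1 transcription factor, correlated at 0.48 in replicate 1 and 0.43 in replicate 2, and the tenth gene *Gadd45g* at 0.36 and 0.34, where the median of the ranked genes was 0.06 (the lower of both replicates). With the number of genes detected taken into account *Junb* stood at 0.42 and 0.33. Of these 10 genes, 9 are on the list of dissociation-induced immediate early genes, of which 17 were among the 723 ranked, and *Atf4* is a transcription factor of the integrated stress response. The mean rank of the members correlated at 0.54 and 0.47 with the summed CPM of that list, and at 0.17 and 0.67 with the reads of the well.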

How the data were processed

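The authors sorted single cells into plates, made Smart-seq2 libraries, aligned 50-base single reads to mm10 with TopHat2 2.1.1, removed duplicates with SAMtools 0.1.18 and deposited raw counts per gene and well made with Subread 1.4.6-p5. The annotation release, strand setting and treatment of reads with several matches are not given in the sources used here. Plates held 31864976 to 74739095 reads on genes. Wells were kept with at least 600 counts, 500 to 8000 genes, reads of 2 or all of the endothelial genes *Cdh5*, *Kdr* and *Pecam1*, and less than 100 CPM of every one of *Kcnj8*, *Pdgfrb*, *Ptprc*, *Prox1* and *Lyve1*. No doublet caller was run, since wells were sorted singly. Kept wells were clustered (leidenalg 0.10.2, resolution 0.4) and named by markers.

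Counts summed per replicate and class were tested with edgeR 4.0.16 (quasi-likelihood, TMM, limma 3.58.1, replicate as block, Benjamini-Hochberg adjustment, threshold 0.05, at least 10 counts in 2 sums). The block follows from the design, since all 3 classes within each replicate were sorted onto shared plates. Deviations from the class means correlated between sums of 1 replicate at 0.147, 0.166 and 0.100. DESeq2 1.42.0, scran 1.30.0 size factors, thinning to 20000 reads and other filters were alternatives. Tested on simulated sums for vein-like against artery-like wells, the fit recovered 0 of 190 changed genes at the dispersion of the data (0.736) and 117 of 192 at 0.05. Python 3.11.15 and R 4.3.3 were used. Gene models came from GENCODE vM21 and promoters from RefSeq (GRCm38.p6).

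The members and lists were chosen with earlier results of these data known. Genes named were the 10 members, from each wider list those past the threshold or otherwise the 2 of highest mean CPM, the 10 genes most correlated with the mean rank of the members, and marker genes. A gene named by this rule is not reported here.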

Additional observations from a re-analysis of the deposited data

Results flagged for a closer look

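*Hsph1* stood apart on 1 plate. Its mean level on plate A of replicate 1 was 12.1 CPM, while the other 3 plates lay from 25.5 to 25.9 CPM, so that the gap to the nearest plate made up 0.973 of the range of the 4 plates. The limit set on that share (Dixon's 95% critical value) is passed by chance in about 1 in 20 groups. The 10 genes were each looked at by mean CPM and again by the share of wells at 100 CPM or more. Few wells carry this gene, with 20 wells of replicate 1 at 100 CPM or more.

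Reads of the chaperones were also present in the wells that were not kept as BECs. All 10 members had reads in over 3 of the 430 such wells of replicate 1, and likewise all 10 in the 405 such wells of replicate 2. *Hspa8* had a read in 100% and 69.4% of them, and *Hspa1a* in 93.5% and 17.3%, with a mean level of 401 and 46.7 CPM. In kept wells *Hspa1a* had a read in 92.0% and 28.4%, at a mean of 309 and 93.9 CPM.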

How the results depend on the processing

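No member was called in any class comparison under any alternative, and 105 of 107 vein-like minus artery-like log2 differences of 6 members kept their direction (*Dnajb1* from 0.35 to 3.41), but those of *Hspa8* and *Hspb1* shrank to 0.0033 and 0.030 with wells classed by highest marker score, and that of *Dnaja1* to 0.066 on plate B alone. The 2 that reversed were *Hspa1a*, at 0.14 and 0.37 with limits of 10 and 300 CPM on genes of other cell types. All values at the limit of 10 CPM rest on 18 wells of replicate 1, of which 2 were artery-like, 4 capillary-like and 6 vein-like. Fits without the replicate block called 0 genes as well, and the block changed no call. Genes called for any difference numbered 23 (limit 10 CPM), 1 (limit 300 CPM), 121 (DESeq2), 31 (no low-count filter), 38 (plate A alone), 1 (thinned) and 9 (12 plate sums). Vein-like against artery-like gave 14 (limit 10 CPM), 165 (DESeq2), 3 (no filter), 6 (plate A alone) and 2 (plate sums), and capillary-like against the others 3 (limit 10 CPM), 276 (DESeq2), 10 (no filter), 31 (plate A alone) and 2 (thinned), where edgeR called 0. Members at 100 CPM or more in both replicates fell from 5 to 2 by medians, and those read in at least 50% of wells of both from 4 to 2 with 3 reads or with 100 CPM required. Members higher in replicate 1 moved from 1 to 0 (scran) and 2 (limit 10 CPM). Those higher in replicate 2 moved from 0 to 5 (scran) and 2 (limit 10 CPM). Leaving out a plate gave 0 to 2 of them (2 without plate B of replicate 1, 1 without plate A of replicate 2). At the limit of 10 CPM 9 members were compared, and 1229 and 1685 of 9355 genes were higher in replicates 1 and 2. With scran 496 and 3008 of 10784 genes were. Genes higher in replicate 2 numbered 1043 of 9730 without plate B of replicate 1 and 1224 of 9698 without plate A of replicate 2. The median pair correlation of 0.103 in replicate 1 became 0.0383 (artery-like), 0.0599 (capillary-like) and 0.168 (limit 10 CPM). In replicate 2, 0.0965 became 0.0808 (Pearson), 0.0558 (thinned), 0.0335 (genes detected adjusted), 0.114 (plate A), 0.175 (capillary-like), 0.119 (limit 10 CPM), 0.119 (limit 300 CPM) and 0.0719 (at most 10% mitochondrial reads). Members highest in vein-like wells by mean CPM fell from 5 to 3 (thinned) and 3 (limit 10 CPM). Of 9773 genes, 1781 were highest there in the main setting, 1609 when thinned and 1762 at the limit of 10 CPM. The plate sums, the mitochondrial limit and the class counts were added after seeing the data, and the cause of these changes was not tested. With 2 residual degrees of freedom, the fit recovered 0 of 190 changed genes in simulated sums at the dispersion of the data and 117 of 192 at 0.05. A missing call therefore does not show that levels were alike.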
